A study of Mus musculus with 12 samples.

Results

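Mouse marrow cells carrying mutant isocitrate dehydrogenase 1 (IDH1mut) were compared with cells carrying an empty retroviral vector. The comparison took the 3 arrays titled as IDH1mut replicates and the 3 titled as empty vector replicates, 6 of the 12 arrays of the series, and covered all 15858 measured genes. All groups started from C57BL/6 bone marrow cells made to proliferate indefinitely by HoxA9, a homeobox factor of early haematopoiesis, so the controls carried HoxA9 too. The cells were transduced with the retroviral vector pSF91 holding either IDH1mut or no insert, transplanted into irradiated mice, and sorted 4 weeks later from marrow by the vector's green fluorescent protein (GFP). A further 3 arrays of cells carrying wild-type IDH1 (IDH1wt) in the same vector showed which differences were also present with the unmutated enzyme. The remaining 3 arrays were of cells given R-2-hydroxyglutarate (R-2HG). All 12 arrays entered the estimate of the spread. The labels do not state which residue of IDH1 was changed, whether the lines were clonal, or whether each replicate is a different animal. The p-values therefore rest on the spread among these arrays, part or all of which may be technical. No batch or scan time was given for the arrays, so batch and group cannot be told apart.

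Wild-type IDH1 converts isocitrate to 2-oxoglutarate in the cytosol and makes NADPH. Cancer-associated mutants of the enzyme turn 2-oxoglutarate into R-2-hydroxyglutarate, which inhibits dioxygenases such as the TET enzymes and histone demethylases, and they occur in acute myeloid leukaemia. Neutrophils form in the marrow by passing through ordered stages, in which primary granule genes are switched on first, secondary granule genes next and the genes of mature neutrophils last.

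The values are log2 values centred on each probe set, so only differences among arrays can be read from them, and a value of 0 does not mean that a gene was silent. Whether the sorted cells expressed the defining markers of myeloid cells could therefore not be read from them, and in sorted bulk cells fewer cells of a type and less RNA per cell cannot be told apart. Pairs of arrays within a group differed less than pairs across groups, with an SD of the difference over all probe sets of 0.187 to 0.289 within groups and 0.294 to 0.423 between them. The number of arrays limits the precision.

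Between IDH1mut and empty vector cells, 3579 of the 15858 genes (22.6%) passed an adjusted p of 0.05 in limma, a linear model with moderated variances. Of these, 1662 (10.5%) were higher and 1917 (12.1%) lower in IDH1mut, and the median log2 fold change over all genes was -0.047. These shares are the background for the counts in the gene lists below. At least 2-fold changes were called for 162 higher genes (1.02%) and 70 lower genes (0.441%). The 3 IDH1mut arrays lay entirely above or below the 3 empty vector arrays in 41.1% of genes, above in 17.5% and below in 23.7%. The same fit called 2484 genes (15.7%) between IDH1mut and IDH1wt and 214 genes (1.35%) between IDH1wt and empty vector. Arrays of IDH1mut and IDH1wt did not overlap in 32.7% of genes (15.8% above, 16.9% below), and those of IDH1wt and empty vector in 23.8% (10.2% above, 13.6% below). These 3 comparisons share arrays, so their values are given side by side and not as independent evidence.

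**Figure D1:**
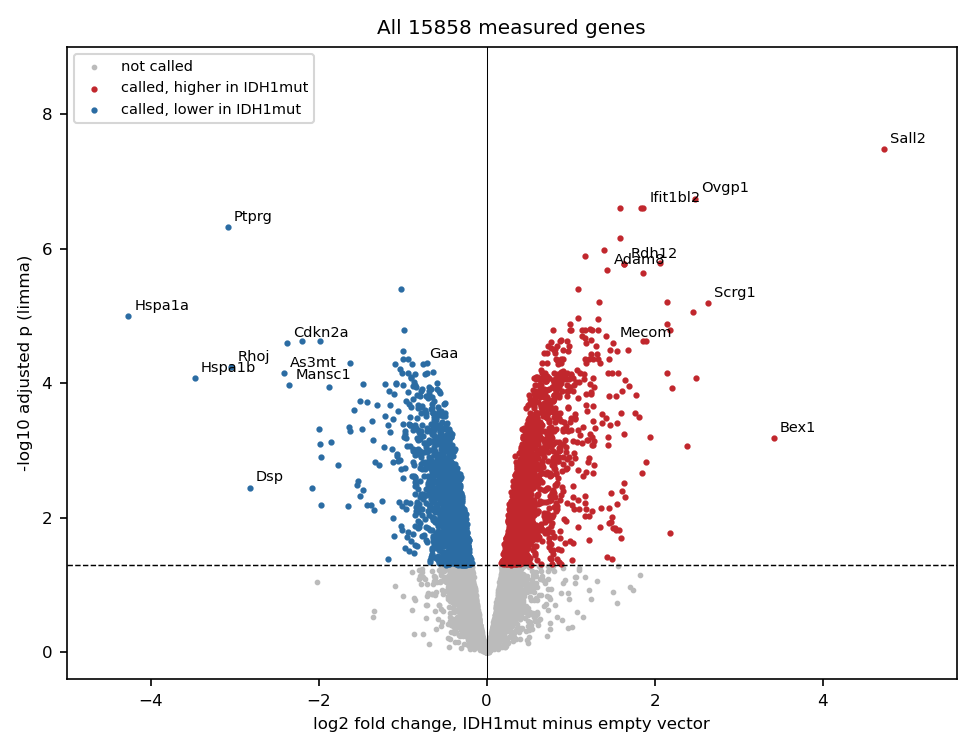
Each point is one of the 15858 genes, with the log2 fold change of IDH1mut over empty vector on the x axis and the -log10 adjusted p on the y axis. The dashed line marks an adjusted p of 0.05. Sall2 stands alone at the far right (4.73), and Hspa1a is the farthest to the left (-4.27).

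Sall2, which encodes a zinc finger transcription factor of the spalt family, had the largest increase of all called genes. It stood at 4.92, 4.65 and 4.08 in the IDH1mut arrays, against -0.14, -0.27 and -0.12 in the empty vector arrays. The groups were far apart, a 26.5-fold difference (4.73 ± 0.16 on the log2 scale, with the SE of the fit and 3 arrays in each group, limma adjusted p = 3.34e-08). The IDH1wt arrays, at -0.13, -0.21 and 0.02, lay with the empty vector arrays. The genes next to Sall2 did not share the change. On one side Mettl3 stood at 0.21 and Tox4 at -0.11, and on the other the olfactory receptor genes Olfr1509 and Olfr1508 at -0.15 and -0.14, as log2 fold changes with none called.

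Several more of the largest increases were seen in IDH1mut arrays and not in IDH1wt arrays. Rdh12, a retinol dehydrogenase gene, stood at 1.63, 1.56 and 1.38 in IDH1mut and -0.04, -0.05 and -0.08 in IDH1wt, against -0.31, 0.02 and -0.05 in empty vector. Its log2 fold change over empty vector was 1.64 ± 0.10 (adjusted p = 1.70e-06), with no overlap of the groups. Ppp1r42, a gene for a regulatory subunit of protein phosphatase 1, stood at 1.19, 1.42 and 1.12 in IDH1mut and -0.44, -0.30 and -0.56 in IDH1wt, against -0.29, -0.35 and -0.53 in empty vector. Dnah6, which encodes an axonemal dynein heavy chain, and Tex15, a germ cell gene of meiotic recombination, are not usually associated with myeloid cells. Dnah6 stood at 1.33, 1.41 and 1.18 in IDH1mut and -0.41, -0.76 and -0.81 in IDH1wt, against -0.55, -0.86 and -0.54 in empty vector. Tex15 stood at 1.07, 1.79 and 1.70 in IDH1mut and 0.04, 0.00 and -0.31 in IDH1wt, against -0.34, -0.21 and -0.23 in empty vector. For both genes every IDH1mut array was above every other array. Fmnl2, a formin that builds actin filaments, differed 4.6-fold from empty vector (2.20 ± 0.25, adjusted p = 0.000118).

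For a further group the IDH1wt arrays lay between the other groups. Chil1, which encodes a secreted chitinase-like protein, stood at 2.20, 2.35 and 2.08 in IDH1mut and 0.00, -0.03 and 0.02 in IDH1wt, against -0.21, -0.29 and -0.37 in empty vector. It differed 5.65-fold from empty vector (2.5 ± 0.26, adjusted p = 8.45e-05), and the IDH1wt arrays lay much nearer to empty vector. Chil1 was not called when limma let the moderated variance follow a trend with the mean value. Scrg1, first described as a scrapie-responsive gene, stood at 2.31, 1.81 and 1.48 in IDH1mut and -0.05, 0.24 and 0.32 in IDH1wt, against -0.51, -0.97 and -0.83 in empty vector. The log2 fold change was 2.64 ± 0.19 for IDH1mut over empty vector (adjusted p = 6.39e-06) and 1.70 for IDH1mut over IDH1wt (adjusted p = 0.00022). Arg2, the mitochondrial arginase that removes arginine, stood at 1.64, 1.35 and 1.02 in IDH1mut and between -0.02 and 0.12 in IDH1wt, against -0.19, -0.76 and -0.63 in empty vector. Slfn4, a Schlafen gene of the myeloid lineage, stood at 0.16, 0.28 and 0.54 in IDH1mut and -0.94, -1.05 and -0.97 in IDH1wt, against -1.46, -1.99 and -2.02 in empty vector. In these genes no array of one group overlapped an array of another.

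Other large increases were shared with IDH1wt. Bex1, a brain-expressed X-linked gene, stood at 2.00, 4.45 and 3.32 in IDH1mut and 4.10, 2.51 and 3.69 in IDH1wt, against 0.11, 0.00 and -0.59 in empty vector. Its neighbour and relative Bex4 was also higher than in empty vector (1.62 ± 0.32, adjusted p = 0.0040), whereas Bex3, which lies on the other side, stood at 0.01 (adjusted p = 0.976). Lrmda, a gene for a melanocyte differentiation protein, stood at 0.35, 0.41 and -0.07 in IDH1mut and 0.60, 0.31 and 0.48 in IDH1wt, against -1.60, -1.67 and -1.64 in empty vector. All 3 Lrmda probe sets were called higher, with log2 fold changes from 0.536 to 3.36. Erdr1 stood at -0.20, 0.27 and 0.23 in IDH1mut and 0.41, 0.56 and 0.48 in IDH1wt, against -1.44, -1.94 and -2.0 in empty vector. Neither Bex1, Lrmda nor Erdr1 was called when limma let the moderated variance follow a trend with the mean value. Cela1, a pancreatic-type elastase gene, was higher than in empty vector (1.85 ± 0.34, adjusted p = 0.00215) but lower than in IDH1wt (-1.30, adjusted p = 0.022).

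**Figure D2:**
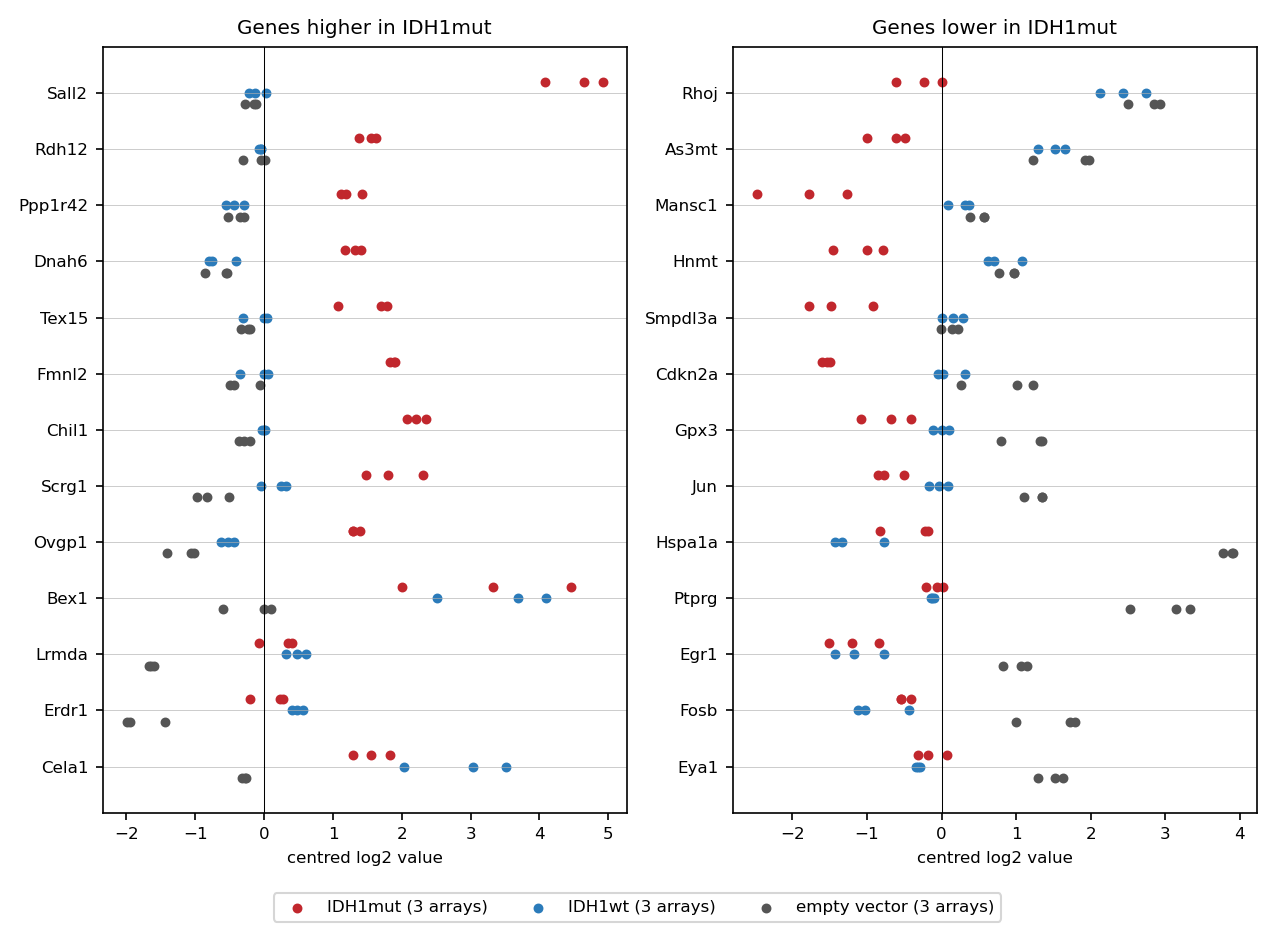
Centred log2 values on the x axis are shown for 13 genes higher and 13 genes lower in IDH1mut, one gene per row, with 1 point per array for IDH1mut (red), IDH1wt (blue) and empty vector (grey). The IDH1wt points lie with the empty vector points for genes such as Sall2, Rdh12, Rhoj and Hnmt, and with the IDH1mut points for Bex1, Lrmda, Ptprg and Egr1.

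The largest decreases also divided by whether IDH1wt cells shared them. Rhoj, a gene known from endothelial cells, stood at -0.61, -0.24 and 0.00 in IDH1mut and 2.75, 2.12 and 2.44 in IDH1wt, against 2.49, 2.86 and 2.93 in empty vector. This was an 8.24-fold difference from empty vector (-3.04 ± 0.30, adjusted p = 5.75e-05), with no overlap. As3mt, an arsenic methyltransferase gene, stood at -0.99, -0.49 and -0.61 in IDH1mut and 1.52, 1.30 and 1.65 in IDH1wt, against 1.23, 1.97 and 1.93 in empty vector. Hnmt, which encodes the enzyme that methylates histamine, stood at -1.45, -0.79 and -1.0 in IDH1mut and 1.08, 0.70 and 0.63 in IDH1wt, against 0.97, 0.97 and 0.76 in empty vector. In both methyltransferase genes the IDH1mut arrays lay below all others. Mansc1, a membrane protein gene, stood at -2.48, -1.78 and -1.27 in IDH1mut against 0.38, 0.57 and 0.58 in empty vector, and Smpdl3a, a secreted phosphodiesterase gene, at -1.48, -1.78 and -0.92 in IDH1mut against -0.01, 0.13 and 0.22 in empty vector. The IDH1wt arrays of these 2 genes lay between 0.00 and 0.37, above all IDH1mut arrays.

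Cdkn2a, which yields the cell cycle inhibitors p16 and p19, stood at -1.54, -1.60 and -1.50 in IDH1mut and 0.31, 0.02 and -0.05 in IDH1wt, against 0.26, 1.22 and 1.01 in empty vector. It was the single member of the 8 measured cyclin-dependent kinase inhibitor genes with a decrease of over 2-fold (5.18-fold, adjusted p = 2.55e-05). Cdkn2c fell by 0.53 on the log2 scale (adjusted p = 0.00313), Cdkn1b rose by 0.40 (adjusted p = 0.0119), and Cdkn2b, next to Cdkn2a in the genome, stood at 0.02 (adjusted p = 0.92). Of the 2 Cdkn1b probe sets 1 was called (0.78) and the other stood at 0.01. Cdkn1a, the p21 gene, stood at -0.14 (adjusted p = 0.35).

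Ptprg, a receptor tyrosine phosphatase gene, stood at -0.06, 0.02 and -0.21 in IDH1mut and -0.14, -0.10 and -0.13 in IDH1wt, against 2.52, 3.33 and 3.14 in empty vector, so that IDH1wt lay with IDH1mut. All 4 of its probe sets were called lower, with log2 fold changes between -4.71 and -1.72. Eya1, a developmental phosphatase and coactivator gene, followed the same pattern at -0.31, 0.07 and -0.18 in IDH1mut and between -0.34 and -0.29 in IDH1wt, against 1.30, 1.52 and 1.63 in empty vector. Crhbp, which encodes the binding protein of corticotropin-releasing hormone, fell by 1.51 against empty vector (adjusted p = 0.00468) and was higher than in IDH1wt by 1.04 (adjusted p = 0.042).

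The heat shock genes Hspa1a and Hspa1b were lower than in empty vector in cells with either form of IDH1. Hspa1a, a gene for the inducible HSP70 chaperone, stood at -0.22, -0.82 and -0.18 in IDH1mut and -1.42, -0.77 and -1.33 in IDH1wt, against 3.90, 3.91 and 3.77 in empty vector. The difference from empty vector was 19.3-fold. Hspa1b, a near-identical copy whose signal may not be separable from that of Hspa1a on the array, fell by 3.47 ± 0.37 against empty vector (adjusted p = 8.51e-05) and was higher in IDH1mut than in IDH1wt (1.59, adjusted p = 0.013). Of 19 measured heat shock chaperone genes 5 were lower and 1 higher in IDH1mut, where 12.1% of all genes were lower and 10.5% higher. Their median was -0.034, beside -0.047 over all genes. In IDH1wt 2 were lower and 0 higher than in empty vector (5 and 0 at an unadjusted p under 0.05), beside 0.561% and 0.788% of all genes. The HSP90 gene Hsp90aa1 (-0.04) and the HSP40 gene Dnajb1 (0.06) were not called.

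Of 29 immediate early genes, which respond within minutes to growth factors or handling, 8 were lower and 3 higher in IDH1mut. Over all genes 12.1% were lower and 10.5% higher, and the median of the list was -0.020. Egr1 stood at -0.84, -1.50 and -1.20 in IDH1mut and -1.42, -0.78 and -1.17 in IDH1wt, against 0.83, 1.07 and 1.15 in empty vector. Fosb, a subunit of the AP-1 factor, stood at -0.54, -0.55 and -0.41 in IDH1mut and -1.03, -0.435 and -1.13 in IDH1wt, against 1.00, 1.72 and 1.79 in empty vector. Jun stood at -0.50, -0.85 and -0.78 in IDH1mut and 0.09, -0.17 and -0.03 in IDH1wt, against 1.11, 1.35 and 1.35 in empty vector, with IDH1wt between the others. Fos was called lower (-0.86) although the groups overlapped, at 1.03, -0.29 and -0.11 in IDH1mut against 0.91, 1.09 and 1.20 in empty vector. Klf4, Ier3, Myc and Ier2 were the other lower members. The members that rose were Rgs2, a regulator of G protein signalling (0.71 ± 0.11), Klf6 (0.55 ± 0.09) and Btg2 (0.65 ± 0.10). Of the 2 Btg2 probe sets 1 was called (1.05) and the other stood at 0.25. The count of lower members fell to 3 without empty vector replicate 3, to 4 without empty vector replicate 1 or 2 or IDH1mut replicate 3 or in a fit of the 6 arrays, and to 5 without IDH1mut replicate 2. IDH1wt against empty vector gave 8 lower and 0 higher members, beside 0.561% and 0.788% of all genes. At an unadjusted p under 0.05 these counts were 9 and 2. Against IDH1wt 6 members were higher and 2 lower in IDH1mut, beside 8.37% and 7.29% of all genes.

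Genes of neutrophil granules changed by stage. Of 10 measured genes of the primary granule list, 6 were lower and 1 was higher in IDH1mut, with a median of -0.798. Mpo, the myeloperoxidase gene, stood at -0.47, -0.50 and -0.44 in IDH1mut and 0.17, 0.18 and 0.25 in IDH1wt, against 0.11, 0.19 and 0.13 in empty vector. Prtn3, the proteinase 3 gene, stood at -0.57, -0.68 and -0.60 in IDH1mut against 0.13, 0.19 and 0.26 in empty vector. The groups did not overlap in either gene, nor in Elane, Ctsg, Ms4a3 and Calr, which completed the 6 lower members of the list. Of these, Mpo, Prtn3, Elane and Ctsg encode granule proteins, and Ms4a3 and Calr do not. Lyz2, the lysozyme gene that stays on into later stages, was the higher one, at 0.26, 0.22 and 0.18 in IDH1mut against -0.04, -0.07 and -0.12 in empty vector.

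Secondary granule genes were called higher in 10 of 19 measured members and lower in 2, with a median of 0.262. Mmp8, the neutrophil collagenase gene, stood at 1.48, 1.5 and 1.39 in IDH1mut and 0.00, 0.00 and -0.16 in IDH1wt, against -0.32, -0.88 and -0.87 in empty vector. Orm1, the acute phase protein orosomucoid, stood at 1.49, 1.82 and 1.31 in IDH1mut against -0.16, 0.41 and 0.00 in empty vector. Smaller increases were called for Lcn2, which encodes the iron-binding protein lipocalin 2 (0.31 ± 0.06), and Pglyrp1, a peptidoglycan-binding protein (0.42 ± 0.07). Camp and Ngp, also major secondary granule genes, stood at 0.08 and 0.02 and were not called. Lrg1 (-0.31) and Tcn2 (-0.30), the vitamin B12 carrier gene transcobalamin 2, were the lower members. None was called lower without IDH1mut replicate 3, without empty vector replicate 3 and in the fit of the 6 arrays, and 1 without IDH1mut replicate 1 or empty vector replicate 1 or 2.

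Late neutrophil maturation genes rose in 21 of 26 measured members and fell in 0 (0 at an unadjusted p under 0.05), with a median of 0.682. With each array left out and under the other settings of the model the count of higher members stayed between 18 and 22. Adam8, a surface metalloprotease gene, stood at 0.72, 0.76 and 0.72 in IDH1mut and -0.46, -0.23 and -0.27 in IDH1wt, against -0.51, -0.80 and -0.79 in empty vector. Fpr2, a receptor for bacterial formyl peptides, stood at 0.83, 0.92 and 0.82 in IDH1mut against -0.22, -0.55 and -0.64 in empty vector. Il1r2, the decoy receptor for interleukin 1, stood at 1.51, 1.22 and 1.06 in IDH1mut against -0.15, -0.31 and -0.42 in empty vector, and no IDH1wt array of these 3 genes reached an IDH1mut array. Cxcr2, the receptor that draws neutrophils out of the marrow, rose by 1.01 ± 0.14, and Csf3r, the G-CSF receptor gene, by 0.80 ± 0.11. The calprotectin genes S100a8 (0.06) and S100a9 (0.03) were not called. Against IDH1wt the same list had 19 higher and 0 lower members, beside 8.37% and 7.29% of all genes, and a median of 0.58. At an unadjusted p under 0.05 these counts were 21 and 1. IDH1wt against empty vector gave 0 higher and 0 lower members in limma, beside 0.788% and 0.561% of all genes, and 8 and 1 at an unadjusted p under 0.05.

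Genes of phagocyte killing were also examined. Slc11a1, a metal transporter of the phagosome that limits bacterial growth, stood at 1.04, 0.65 and 0.69 in IDH1mut and 0.00, 0.20 and 0.13 in IDH1wt, against -0.60, -0.49 and -0.52 in empty vector. The NADPH oxidase subunit genes Ncf4 (0.28 ± 0.06), Cybb (0.38 ± 0.11), Ncf1 (0.23 ± 0.07) and Cyba (0.26 ± 0.08) were higher, so that 5 of 8 measured members rose and 0 fell (1 at an unadjusted p under 0.05). Only 2 stayed called without IDH1mut replicate 2 or any 1 empty vector replicate, 3 without IDH1mut replicate 1, and 3 in the fit of the 6 arrays.

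**Figure D3:**
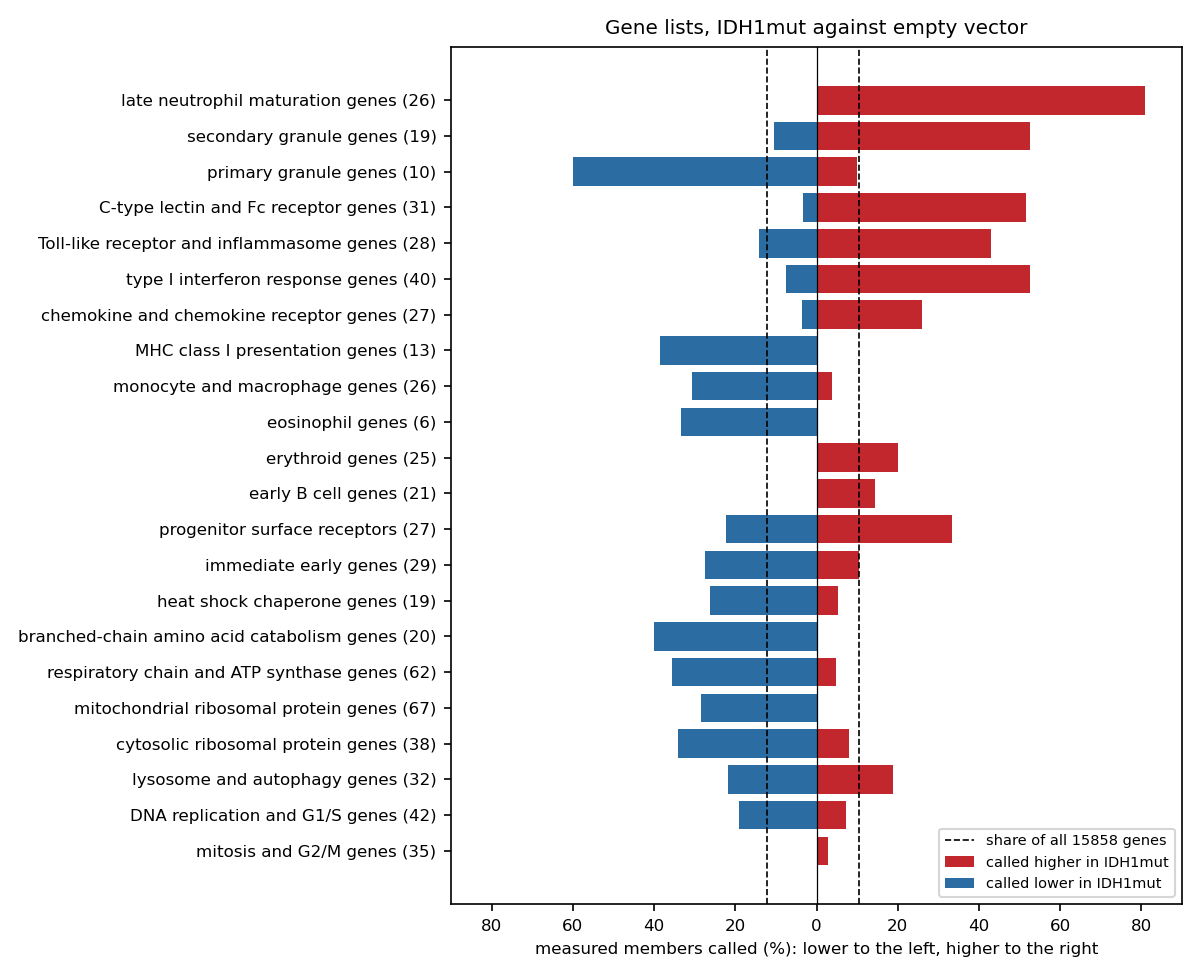
Bars give the percentage of measured members called higher (red, to the right) or lower (blue, to the left) in IDH1mut than in empty vector for 22 gene lists, with the number measured in brackets. Dashed lines mark the shares over all genes, 10.5% higher and 12.1% lower. Late neutrophil genes reach farthest to the right and primary granule genes farthest to the left.

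Many receptors by which myeloid cells sense microbes and antibodies rose. Of 31 measured C-type lectin, Fc receptor and related paired receptor genes, 16 were higher and 1 lower in IDH1mut, with a median of 0.476. Fcgr4, an activating receptor for IgG, stood at 0.98, 0.82 and 0.58 in IDH1mut and -0.04, 0.20 and 0.09 in IDH1wt, against -0.11, -0.30 and -0.21 in empty vector. Cd300lf stood at 0.73, 0.54 and 0.61 in IDH1mut against -0.31, -0.74 and -0.73 in empty vector, and the inhibitory receptor gene Pirb at 0.65, 0.43 and 0.55 in IDH1mut against -0.18, -0.43 and -0.42 in empty vector. In these 3 genes every IDH1mut array lay above every empty vector array. Clec5a, which signals through DAP12, rose by 1.27 ± 0.20 and Clec4d, a receptor for mycobacterial lipids, by 1.26 ± 0.20. The paired receptor genes Pilra (0.81 ± 0.10) and Pilrb1 (0.62 ± 0.08) rose together. The lower member was Mrc1, the macrophage mannose receptor (-0.77 ± 0.21, adjusted p = 0.0187).

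Among 28 Toll-like receptor and inflammasome genes, 12 were higher and 4 lower, with a median of 0.294. Nod1, a cytosolic sensor of bacterial peptidoglycan, stood at 0.59, 0.54 and 0.44 in IDH1mut and -0.20, -0.11 and -0.17 in IDH1wt, against -0.31, -0.17 and -0.25 in empty vector. Tlr13, which recognises bacterial ribosomal RNA, stood at 1.06, 0.70 and 0.62 in IDH1mut and 0.21, 0.22 and 0.25 in IDH1wt, against -0.20, -0.41 and -0.35 in empty vector. Tlr6 (1.19 ± 0.18) and its partner Tlr2 (0.69 ± 0.11) rose, as did the shared adaptor Myd88 (0.51 ± 0.06). Cd14, the lipopolysaccharide co-receptor gene, went the other way, at -0.08, -0.83 and -0.29 in IDH1mut against 0.91, 1.13 and 1.05 in empty vector. The other lower members were Ticam1, which encodes the adaptor of TLR3 (-0.33), Pycard (-0.29) and Sting1 (-0.58). The lower count was 2 without empty vector replicate 2 or 3.

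Chemokine and chemokine receptor genes were higher in 7 of 27 measured members and lower in 1. Ccr1, a receptor for CCL3 and CCL5, stood at 0.79, 0.57 and 0.62 in IDH1mut against 0.01, -0.05 and -0.14 in empty vector. Ccl6 rose by 1.56 ± 0.16 and Ccl9 fell by 0.78 ± 0.16, although both are chemokines of myeloid cells that act on CCR1. Cxcl12, the ligand that retains cells in the marrow, rose on average (0.59 ± 0.09), but 1 of its 3 probe sets stood at -0.04 (adjusted p = 0.868).

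Type I interferon response genes were higher in 21 of 40 measured members and lower in 3, with a median of 0.333, and at least 1.5-fold higher in 9 and lower in 1. Rsad2, which encodes the antiviral enzyme viperin, stood at 0.79, 0.68 and 0.61 in IDH1mut and -0.21, 0.00 and -0.23 in IDH1wt, against -0.50, -0.69 and -0.67 in empty vector. Ifit3, a member of the antiviral IFIT family, stood at 1.14, 0.73 and 0.60 in IDH1mut and -0.08, 0.00 and -0.07 in IDH1wt, against -0.69, -0.87 and -0.81 in empty vector. For both genes the IDH1wt arrays lay between the other 2 groups without overlap. The related Ifit1bl1 stood at 1.40, 1.13 and 1.08 in IDH1mut against -0.56, -0.65 and -0.68 in empty vector, and Ifit1bl2 at 1.35, 1.37 and 1.14 in IDH1mut against -0.48, -0.60 and -0.64 in empty vector. The transcription factor genes Irf7 (0.56 ± 0.15) and Irf9 (0.34 ± 0.08) rose, whereas Stat2 stood at 0.02 (adjusted p = 0.92). The lower members were Bst2, a tether of budding virus also found on plasmacytoid dendritic cells, at -0.38, -0.71 and -1.08 in IDH1mut against 0.25, 0.31 and 0.31 in empty vector, and Ifih1 (-0.25) and Tor3a (-0.30). The lower count was 1 with genes of low SD left out or without empty vector replicate 2 or 3, and 2 without IDH1mut replicate 2 or 3. Against IDH1wt 15 members were higher and 2 lower, beside 8.37% and 7.29% of all genes.

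The promoters of Ifit3, Rsad2 and Bst2 are shown because they hold the core of the interferon-stimulated response element, the site bound by interferon-activated factors, although Bst2 fell while the other two rose. Each line gives 300 bases around an annotated RefSeq transcription start in build GRCm38.p6, written 5′ to 3′ on the gene's strand. Capitals mark each place where GAAA occurs 2 times with any 2 bases between, on either strand, and overlapping matches run together.
Ifit3, chr19:34583279-34583578, plus strand: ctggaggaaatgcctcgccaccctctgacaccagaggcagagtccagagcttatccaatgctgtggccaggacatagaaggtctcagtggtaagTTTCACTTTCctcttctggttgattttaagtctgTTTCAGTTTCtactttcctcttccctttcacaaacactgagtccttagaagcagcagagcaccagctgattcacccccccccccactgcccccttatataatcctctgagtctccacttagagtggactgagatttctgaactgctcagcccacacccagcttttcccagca
Rsad2, chr12:26456403-26456702, minus strand: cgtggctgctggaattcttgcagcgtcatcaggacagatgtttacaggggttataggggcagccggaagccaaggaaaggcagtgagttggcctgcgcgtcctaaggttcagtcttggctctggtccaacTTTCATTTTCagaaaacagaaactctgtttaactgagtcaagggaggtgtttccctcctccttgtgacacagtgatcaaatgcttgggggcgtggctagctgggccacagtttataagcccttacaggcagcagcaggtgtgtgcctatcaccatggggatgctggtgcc
Bst2, chr8:71537423-71537722, minus strand: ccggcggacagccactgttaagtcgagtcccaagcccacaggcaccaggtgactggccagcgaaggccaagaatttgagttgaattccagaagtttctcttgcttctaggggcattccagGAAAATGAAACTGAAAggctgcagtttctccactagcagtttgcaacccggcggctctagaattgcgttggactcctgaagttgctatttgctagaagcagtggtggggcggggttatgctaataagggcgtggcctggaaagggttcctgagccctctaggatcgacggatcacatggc
Of the 21 higher members 15 had a promoter in the RefSeq table and 6 of them held this motif, as did both of the 2 lower members with a promoter and 4 of 11 members that were not called. Over all measured genes with a promoter, 459 of 12594 (3.64%) held it. The motif was thus found in 40% of the higher members with a promoter and in 36.4% of the uncalled ones, which describes the sequences and says nothing of which factor was bound.

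**Figure D4:**
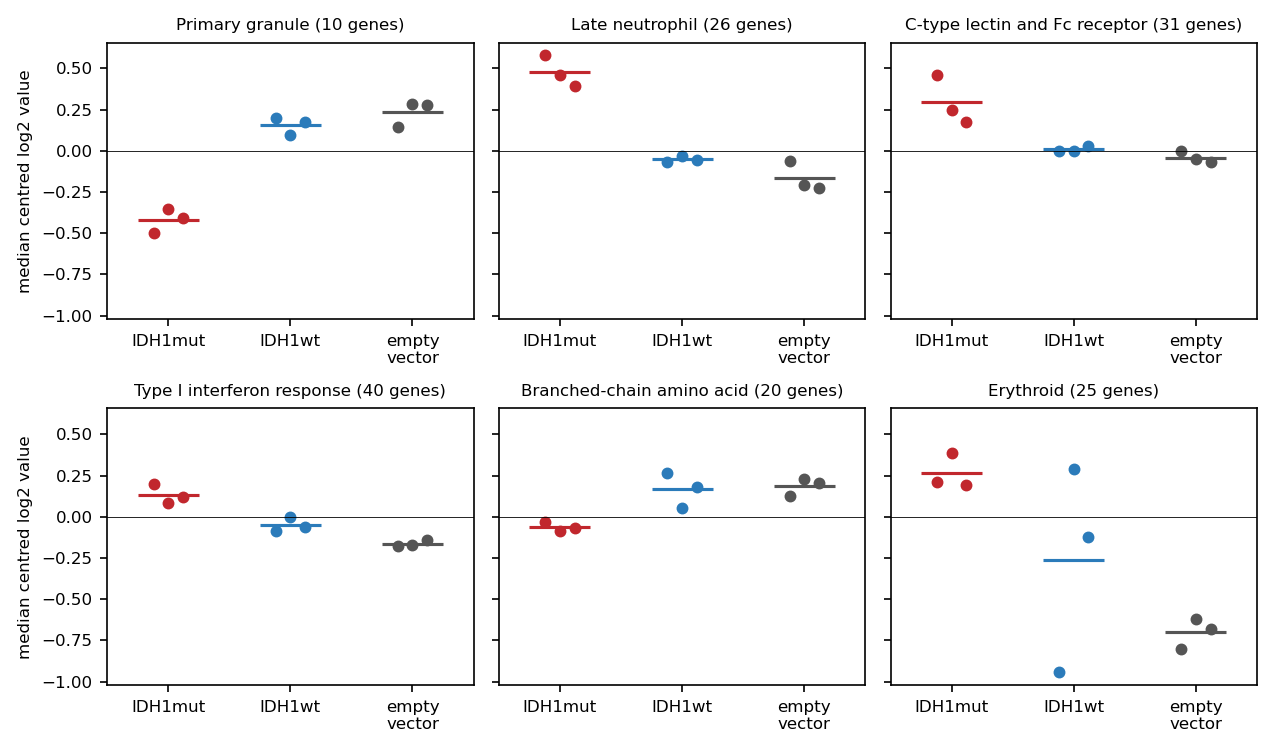
Each point is the median centred log2 value of a gene list on one array, with the line at the mean of the 3 arrays, for IDH1mut, IDH1wt and empty vector. The IDH1mut arrays do not overlap the empty vector arrays in any of the 6 lists. In the erythroid list the 3 IDH1wt arrays are spread from -0.945 to 0.287.

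Several genes of antigen presentation on MHC class I, many of which interferon can induce, were lower in IDH1mut. Of 13 measured members 5 were lower and 0 higher (6 and 0 at an unadjusted p under 0.05). Tap2, a subunit of the peptide transporter, stood at -0.33, -0.45 and -0.75 in IDH1mut and 0.01, 0.00 and 0.00 in IDH1wt, against 0.16, 0.60 and 0.60 in empty vector. Psmb10 stood at -0.20, -0.37 and -0.52 in IDH1mut against 0.34, 0.30 and 0.46 in empty vector, and Psmb8, another subunit of the immunoproteasome, fell by 0.51 ± 0.09. The class I heavy chain genes H2-K1 (0.06) and H2-D1 (0.10) and B2m (0.04) were not called.

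Markers of other cell types that the GFP gate could hold were examined beside these results. Of 26 monocyte and macrophage genes 8 were lower and 1 higher, beside 12.1% and 10.5% of all genes. Their median was -0.04, beside -0.047 over all genes, so the list as a whole did not fall. Among them F13a1, the coagulation factor XIII subunit of monocytes, stood at -0.17, -0.95 and -0.65 in IDH1mut against 0.11, 0.04 and 0.02 in empty vector, and Gpnmb fell by 1.55 ± 0.30. The summed values of 5 monocyte markers ran from -2.87 to 0.34 in IDH1mut and from 0.93 to 1.12 in empty vector, with IDH1mut replicate 1 nearest to the controls. Without IDH1mut replicate 2 the lower count was 5. The single higher member was Lgals3, the galectin 3 gene (0.68). Eosinophil genes were lower in 2 of 6 members, Prg3 (-1.23 ± 0.19) and Epx (-1.10 ± 0.29). Epx was not called without IDH1mut replicate 3 or empty vector replicate 2 or 3, which left 1 lower member, and the count was 4 in the fits of 6 or 9 arrays, with array weights and after a second quantile normalization. The sum of 4 mast cell and basophil markers ran from -3.07 to 0.14 in IDH1mut and from 0.83 to 1.90 in empty vector, with none called.

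Erythroid genes stood higher in IDH1mut with a median of 0.980 over 25 measured members. The median on each array was 0.209, 0.388 and 0.193 in IDH1mut and -0.800, -0.620 and -0.680 in empty vector, and in 19 members all IDH1mut arrays lay above all empty vector arrays, where 17.5% of all genes did so. In the fit of all 12 arrays 5 were called higher and 0 lower (14 and 1 at an unadjusted p under 0.05). The 6 arrays of both groups alone gave 19 higher members, the 9 arrays without the remaining group of the series gave 18, and array weights or a second quantile normalization gave 17 each. Alas2, the first enzyme of haem synthesis in red cells, stood at 0.00, 0.94 and 0.89 in IDH1mut against -0.42, -1.17 and -0.64 in empty vector, and Slc25a37, the mitochondrial iron importer, at 0.00, 0.20 and 0.50 in IDH1mut against -0.63, -0.60 and -0.57 in empty vector. Alas2 was not called without IDH1mut replicate 2 or 3 or empty vector replicate 2. On the IDH1wt arrays the median of the list was -0.945, 0.287 and -0.124, with replicate 2 within the range of IDH1mut. Against IDH1wt 1 member was called higher and 0 lower (4 and 0 at an unadjusted p under 0.05), beside 8.37% and 7.29% of all genes.

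Early B cell genes were higher in 3 of 21 members and lower in 0 (5 and 1 at an unadjusted p under 0.05), a share near the 10.5% of all genes that were higher. The sum of 4 B cell markers was 2.75, 1.74 and 4.96 in IDH1mut and -2.49, 1.18 and -0.08 in IDH1wt, against 3.39, 0.37 and 0.04 in empty vector, so that the groups overlapped. Vpreb1, a surrogate light chain gene, stood at 1.96, 1.26 and 2.81 in IDH1mut and -1.20, 0.20 and -0.40 in IDH1wt, against 1.04, 0.20 and 0.00 in empty vector. Vpreb1 was not called without IDH1mut replicate 3 or empty vector replicate 2 or 3. Dntt, the terminal transferase gene of lymphoid progenitors, rose by 1.49 ± 0.35 and Igll1, the other surrogate light chain gene, by 0.84 ± 0.18, while Pax5 (-0.30) and Cd79b (0.01) were not called. Of the 2 Igll1 probe sets 1 was called (1.47) and the other stood at 0.20. T and NK cell genes were higher in 3 and lower in 2 of 23 members, shares near those of all genes. Nkg7, a cytotoxic granule gene, fell by 0.99 ± 0.09, and Trat1, which encodes an adaptor of the T cell receptor, by 0.50 ± 0.08. The T cell receptor subunit genes Cd247 (0.98 ± 0.16), Cd3g (0.76) and Cd3d (0.57) rose, but neither Cd3g nor Cd3d was called without IDH1mut replicate 2 or empty vector replicate 1 or 2, and Cd3g was not without IDH1mut replicate 3. The part of these other cell types in the results on neutrophil and interferon genes was not tested.

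Of 23 measured transcription factors of myeloid fate 3 were higher and 6 lower, beside 10.5% and 12.1% of all genes. The median of the list was -0.026, beside -0.047 over all genes. Id2, an inhibitor of E proteins, stood at 0.96, 0.99 and 0.96 in IDH1mut and -0.52, 0.06 and -0.31 in IDH1wt, against -0.61, -0.25 and -0.29 in empty vector. Cebpa, which directs granulocyte commitment, stood at -0.19, -0.33 and -0.23 in IDH1mut and 0.28, 0.36 and 0.25 in IDH1wt, against 0.38, 0.31 and 0.43 in empty vector. Irf8, a monocyte and dendritic cell factor, stood at -0.07, -0.82 and -0.38 in IDH1mut against 0.38, 0.37 and 0.56 in empty vector. Myb (-0.47 ± 0.11) and Gfi1 (-0.48 ± 0.12) fell, and the late factor genes Cebpb (0.01) and Cebpd (0.09) were not called. Without empty vector replicate 3 the lower count was 3.

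Self-renewal genes were 3 higher and 3 lower of 26 measured, which are the shares of all genes (10.5% and 12.1%) to within 1 gene. Mecom, a stem cell transcription factor gene, stood at 1.40, 1.49 and 1.29 in IDH1mut and -0.34, -0.21 and 0.00 in IDH1wt, against -0.11, -0.37 and 0.14 in empty vector, but only 1 of its 2 probe sets was called (2.91) and the other stood at 0.10. Meis1, a cofactor of HoxA9, stood at 0.38, 0.59 and 1.12 in IDH1mut against -0.10, -0.10 and 0.00 in empty vector, with 1 of 3 probe sets at -0.17 (adjusted p = 0.291). Its partner Pbx3 fell by 0.77 ± 0.17, while Pbx2 (0.50 ± 0.08) and Pknox1 (0.50 ± 0.10) rose. Hoxa5 stood at -0.23, -0.09 and -0.37 in IDH1mut and -0.08, -0.18 and -0.13 in IDH1wt, against 0.50, 0.46 and 0.82 in empty vector, so that IDH1wt lay with IDH1mut. Hoxa9 itself was not called (-0.24, adjusted p = 0.0515), and whether its probe sets detect the introduced gene is not known here.

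Surface receptors of progenitors were higher in 9 and lower in 6 of 27 measured members, beside 10.5% and 12.1% of all genes. Cd33, a sialic acid-binding receptor of myeloid cells, stood at 0.86, 0.87 and 0.76 in IDH1mut and -0.10, 0.00 and -0.09 in IDH1wt, against 0.06, -0.10 and -0.11 in empty vector. The interleukin 3 receptor gene Il3ra stood at -0.12, -0.60 and -0.41 in IDH1mut against 0.25, 0.52 and 0.63 in empty vector. Cd48 (-0.58 ± 0.11), Cd93 (-0.44 ± 0.09), Cd27 (-0.91 ± 0.20) and Kit, the stem cell factor receptor (-0.43 ± 0.11), fell, and Cd34 stood at 0.05 (adjusted p = 0.83). Of the 2 Kit probe sets 1 was called. Among 24 integrin and selectin pathway genes 4 were higher and 8 lower, beside 10.5% and 12.1% of all genes. The subunits of the neutrophil integrin Mac-1, Itgam (0.48 ± 0.08) and Itgb2 (0.47 ± 0.06), rose, and Itga6 (-0.59 ± 0.11) and Pecam1 (-0.64 ± 0.11) fell. The lower count ran from 3 to 10 across the settings of the model and lay between 3 and 5 without IDH1mut replicate 1 or 2 or any empty vector replicate.

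Many mitochondrial genes were lower by small amounts. Of 67 mitochondrial ribosomal protein genes 19 were lower and 0 higher (33 and 1 at an unadjusted p under 0.05), with a median of -0.178, but 0 changed by 1.5-fold and 11 stayed called without IDH1mut replicate 3. Mrps33 stood at 0.02, -0.07 and -0.22 in IDH1mut and 0.43, 0.17 and 0.26 in IDH1wt, against 0.36, 0.50 and 0.47 in empty vector. Of 62 respiratory chain and ATP synthase genes 22 were lower and 3 higher, with a median of -0.177. The complex III subunit gene Uqcrc1 (-0.48 ± 0.08) and the complex I subunit gene Ndufc1 (-0.51 ± 0.09) fell, whereas Cox7c rose by 0.85 ± 0.16 and Ndufs1 by 0.42 ± 0.09. The lower count was 13 without IDH1mut replicate 3, 12 without empty vector replicate 2, 11 without empty vector replicate 3 and 14 with genes of low SD left out. Of 38 cytosolic ribosomal protein genes 13 were lower and 3 higher, with a median of -0.167 and a lower count between 3 and 19 across the settings. Leaving out any 1 of the 6 arrays left between 4 and 8 of them lower. Against IDH1wt 5 of 67 mitochondrial ribosomal and 7 of 62 respiratory chain genes were called lower, beside 7.29% of all genes. The medians of these lists were -0.087 and -0.082. Of the 38 cytosolic ribosomal protein genes 6 were lower and 2 higher than in IDH1wt, with a median of -0.12. IDH1wt stood below empty vector in the mitochondrial ribosomal and respiratory chain lists, with medians of -0.108 and -0.098. At an unadjusted p under 0.05, 17 and 12 of their members were lower, but 0 were called in limma. For the cytosolic list the median of IDH1wt over empty vector was -0.034, with 0 members lower and 4 higher at an unadjusted p under 0.05.

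Genes that break down the branched-chain amino acids leucine, isoleucine and valine were lower in 8 of 20 measured members and higher in 0 (8 and 1 at an unadjusted p under 0.05), with a median of -0.187. The lower count stayed between 7 and 9 across the settings of the model, but only 2 members were at least 1.5-fold lower. Echs1, an enoyl-CoA hydratase gene, stood at -0.09, -0.26 and -0.29 in IDH1mut and 0.75, 0.05 and 0.30 in IDH1wt, against 0.59, 0.88 and 0.84 in empty vector. Bckdha and Dbt encode subunits of the branched-chain ketoacid dehydrogenase, the committed step. Bckdha stood at 0.02, -0.32 and -0.32 in IDH1mut and 0.52, 0.28 and 0.36 in IDH1wt, against 0.39, 0.56 and 0.69 in empty vector. Dbt stood at -0.37, -0.27 and -0.12 in IDH1mut and 0.30, 0.47 and 0.44 in IDH1wt, against 0.29, 0.35 and 0.33 in empty vector. The mitochondrial transaminase gene Bcat2 fell by 0.56 ± 0.14, and its cytosolic counterpart Bcat1 stood at 0.04 (adjusted p = 0.84). Against IDH1wt 8 members were lower and 0 higher, beside 7.29% and 8.37% of all genes.

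Lysosomal and autophagy genes were 6 higher and 7 lower of 32, beside 10.5% and 12.1% of all genes. The lower ones included the hydrolase genes Gaa, acid alpha-glucosidase, at -0.14, -0.21 and -0.26 in IDH1mut and 0.54, 0.59 and 0.54 in IDH1wt, against 0.50, 0.68 and 0.51 in empty vector, and Glb1, beta-galactosidase (-0.66 ± 0.10). The autophagy gene Map1lc3b rose by 0.34 ± 0.10.

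Of 8 measured isocitrate and 2-hydroxyglutarate dehydrogenase genes 2 were lower and 0 higher (4 and 0 at an unadjusted p under 0.05). Over all genes 12.1% were lower and 10.5% higher. The median of the list was -0.13, and its lower count ran from 1 to 4 across the settings of the model. Idh1 stood at -0.06 (adjusted p = 0.74), and whether the array detects the introduced IDH1 is not known here. Idh2, the mitochondrial enzyme, stood at 0.03, 0.05 and -0.07 in IDH1mut against 0.31, 0.50 and 0.41 in empty vector (-0.40 ± 0.09, adjusted p = 0.00592), with 1 of its 2 probe sets called. D2hgdh, which oxidises R-2-hydroxyglutarate, stood at 0.07 (adjusted p = 0.67). Tet2 (0.07) and Dnmt3a (-0.03), both often mutated in myeloid leukaemia, were not called. The maintenance DNA methyltransferase gene Dnmt1 stood at -0.37, -0.33 and -0.27 in IDH1mut and 0.06, 0.16 and 0.06 in IDH1wt, against 0.10, 0.13 and 0.21 in empty vector, and all 3 of its probe sets were called lower. Of 44 other 2-oxoglutarate dioxygenase genes 4 were higher and 7 lower, shares near the background. Without IDH1mut replicate 2 or any empty vector replicate the higher count was 2, and the lower count was between 2 and 4 without IDH1mut replicate 2 or 3 or any empty vector replicate. Among the lower ones was Egln1, an oxygen sensor of the HIF pathway (-0.50 ± 0.11).

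Redox genes that use or make NADPH were 7 higher and 5 lower of 29, beside 10.5% and 12.1% of all genes. Gpx3, the secreted glutathione peroxidase gene, stood at -0.68, -1.09 and -0.40 in IDH1mut and -0.11, 0.10 and 0.00 in IDH1wt, against 0.80, 1.34 and 1.32 in empty vector. Nnt, the mitochondrial transhydrogenase gene, stood at -0.11, -0.32 and 0.11 in IDH1mut and -0.08, -0.16 and -0.05 in IDH1wt, against 0.50, 0.61 and 0.58 in empty vector, so that IDH1wt lay with IDH1mut. Of the 3 Nnt probe sets 2 were called lower and the other stood at -0.02. Keap1 fell by 0.65 ± 0.08, and Nfe2l2, whose protein KEAP1 degrades, rose by 0.34 ± 0.08. Of genes known as NRF2 targets, which had no list of their own, Nqo1 (1.09 ± 0.23), Slc7a11 (0.73 ± 0.12), Gsr (0.37 ± 0.08), Pgd (0.39 ± 0.08) and Taldo1 (0.40 ± 0.07) rose and Gstm1, a glutathione transferase gene, fell (-0.62 ± 0.14, with all 4 probe sets called). Hmox1 (0.42), Gclm (0.13), Txnrd1 (-0.01) and Srxn1 (0.19) were not called, so that these genes did not move together.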

How the data were processed

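Total RNA of sorted GFP-positive mouse marrow cells was hybridised to Affymetrix mouse arrays, 3 per group. The authors deposited log2 values made with RMA, per the submitters' processing notes. The values are centred per probe set, and the reference of the centring is not given in the sources used here. Groups came from the sample titles. A gene's value was the mean of its probe sets that list exactly 1 symbol (28805 of 32533), which gave 15858 genes.

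Each gene was fitted in limma 3.58.1 (R 4.3.3) with 1 coefficient per group over all 12 arrays of the series. The 3 arrays of cells given R-2HG, whose description field names another vector, served only to estimate the spread. Tests were two-sided, adjusted by Benjamini-Hochberg over all genes, with a threshold of 0.05. In a simulation on these 15858 genes for IDH1mut against empty vector, 64.2% of changes of 0.5 on the log2 scale, 97% of changes of 1 and 98.5% of changes of 2 were recovered. The simulation drew independent normal noise with each gene's residual SD and changed 200 genes, where the data called 3579. It held no batch or shared error, so these rates are not the sensitivity of the comparison itself. Promoters came from RefSeq tables of GRCm38.p6.

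The members and the 54 gene lists were chosen with earlier results of these data known. Genes were named by rule: the 30 largest called changes each way without overlap of the arrays, the 4 smallest p each way in each list, the neighbours of the 5 largest changes each way and 14 fixed genes, 312 in all. B2m, Bcat1, Bcat2, Camp, Cd34, Cd79b, Cebpb, Cebpd, Clec4d, Clec5a, Cyba, Dnajb1, F13a1, Fos, Gclm, Gsr, H2-D1, H2-K1, Hmox1, Hsp90aa1, Ier2, Irf7, Irf9, Klf4, Lcn2, Map1lc3b, Mpo, Myc, Nfe2l2, Ngp, Nqo1, Pax5, Pglyrp1, Pilra, S100a8, S100a9, Srxn1, Stat2, Tlr2 and Txnrd1 were named after their values were seen.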

Additional observations from a re-analysis of the deposited data

Results flagged for a closer look

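The comparisons above used only probe sets that list exactly 1 gene symbol. Among the 2971 probe sets with no symbol in the annotation used here, 295 were called higher and 184 lower in IDH1mut than in empty vector (16.1%), against 21.8% of the 28805 probe sets with 1 symbol. The 3 largest increases among them are given here because they lie outside those comparisons. Probe set 1442445_at was higher by 3.016 on the log2 scale (limma adjusted p = 0.000592), at 2.014, 2.315 and 2.077 in IDH1mut and -0.622, 0.658 and 0.0 in IDH1wt, against -0.435, -1.203 and -1.003 in empty vector. Probe set 1421278_s_at was higher by 2.473 (adjusted p = 0.00491), and its IDH1wt arrays ran from -1.118 to 0.731. Probe set 1446968_at was higher by 2.13 (adjusted p = 1.11e-06), at 0.676, 1.02 and 1.069 in IDH1mut and 0.575, 0.687 and 0.413 in IDH1wt, against -1.165, -1.211 and -1.249 in empty vector.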

How the results depend on the processing

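For IDH1mut against empty vector the count of called genes stayed within 1.5 times 3579 in all alternatives but 2: 930 genes also reached a fold change of 1.5, and 6320 of 28805 probe sets (21.9%) were called when each was tested on its own. It ran from 2427 to 3278 with 1 array of either group left out, and array weights gave 4823. For IDH1mut against IDH1wt the same 2 alternatives gave 596 genes and 4059 probe sets, and leaving out 1 array gave 1568 (without IDH1wt replicate 3) to 2135, with 1636 without IDH1mut replicate 2. For IDH1wt against empty vector the 214 calls became 119 at a fold change of 1.5, 419 after a second quantile normalization, 382 with the probe set of highest SD, 1388 with array weights, 560 with each probe set on its own, and 84 to 214 with 1 array left out. The cause was not tested. Replicate numbers did not pair the samples, since deviations of same-numbered arrays correlated between -0.102 and 0.022. With the replicate number as a block 3258 genes were called for IDH1mut against empty vector, 2178 for IDH1mut against IDH1wt and 147 for IDH1wt against empty vector. Of 303 named genes that were called, 216 stayed called under every alternative other than the fold minimum. Of the named genes that were called, 10 had a probe set of the opposite sign, none of them called. It was the probe set farthest from the mean for Cxcl12 (-0.036), Kdm7a (-0.022), Meis1 (-0.168), Ndufb2 (0.095), Slc2a3 (-0.069) and Sox4 (0.067), and another one for Atg7 (-0.05), Atp5c1 (-0.172), Kdm6a (-0.183) and Rps9 (-0.114). Centred values give no signal over background, so dim probe sets could not be told from bright ones.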

Other observations

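Of 30 p53 target genes 8 were higher and 3 lower in IDH1mut than in empty vector, beside 10.5% and 12.1% of all genes. Their median was 0.056. The lower count was 1 without IDH1mut replicate 3, without empty vector replicate 3 and with the 6 arrays alone, 2 without IDH1mut replicate 2 or empty vector replicate 2 or with genes of low SD left out, and 5 with array weights. Fas, the death receptor gene, stood at 1.06, 0.91 and 0.79 in IDH1mut and 0.04, -0.12 and -0.08 in IDH1wt, against -0.09, 0.00 and -0.03 in empty vector. Trp53inp1 rose by 0.72 ± 0.07 and Ddb2, a DNA damage sensor gene, by 0.87 ± 0.11, with no overlap of the arrays. Among 26 NF-kB target genes 7 were higher and 4 lower, beside 10.5% and 12.1% of all genes. Il1rn, which encodes the antagonist of the interleukin 1 receptor, stood at 1.24, 1.07 and 0.92 in IDH1mut and -0.06, -0.13 and -0.14 in IDH1wt, against 0.07, -0.24 and -0.34 in empty vector. The higher NF-kB count was 3 without empty vector replicate 2 and 4 without IDH1mut replicate 1 or 3, and the lower count was 1 or 2 without IDH1mut replicate 2 or 3 or any empty vector replicate.

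Of 50 genes of the MYC network and ribosome biogenesis 9 were lower and 4 higher, beside 12.1% and 10.5% of all genes. Their median was -0.138. Max, the obligate partner of MYC, rose by 0.61 ± 0.06, as did Mxd1, which competes with MYC for MAX (0.62 ± 0.11), and Mybbp1a, a nucleolar protein gene, fell by 0.66 ± 0.11. The lower count was 4 without IDH1mut replicate 1 and 5 without empty vector replicate 2. DNA replication genes were lower in 8 of 42 members and higher in 3, beside 12.1% and 10.5% of all genes. Among the lower ones were Pold1, a DNA polymerase subunit gene (-0.51 ± 0.08), and Mcm3 of the replicative helicase (-0.39 ± 0.07). That lower count was 4 without empty vector replicate 2, 5 without empty vector replicate 3 or IDH1mut replicate 2, and 17 with array weights. Of 29 Polycomb genes 1 was higher and 3 were lower, no more than the 10.5% and 12.1% of all genes. Their median was -0.045, beside -0.047 over all genes. Phf1 rose by 0.91 ± 0.09, while Phc2 (-0.52 ± 0.08), Phc1 (-0.40 ± 0.07) and Phf19 (-0.41 ± 0.08) fell. Of the 2 Phf19 probe sets 1 was called (-0.66) and the other stood at -0.16.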
